A study of Homo sapiens with 6 samples.

Results

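The genes described here code for 43 nucleolar proteins that build ribosomes, listed by name and each read at the probe set with the highest mean over all arrays. Of the 43 genes, 39 had a probe set annotated with that gene alone, out of 19775 genes so annotated on the array. NOP56, DKC1 and BOP1 shared their probe sets with other symbols, GNL3 was named on no probe set, and no value is given for these 4. Ribosomes are assembled in the nucleolus, where RNA polymerase I copies the ribosomal DNA into a long precursor. Small nucleolar RNA-protein particles (snoRNPs) modify that precursor and guide its cutting, and large assemblies of processing factors shape the small and the large subunit before export. Reed-Sternberg cells, the tumour cells of Hodgkin lymphoma, carry prominent nucleoli, and many genes of this machinery are known targets of the MYC transcription factor.

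Total RNA of L428 cells, a line derived from Hodgkin lymphoma, was measured on 6 Affymetrix HG-U133 Plus 2.0 arrays. In 3 samples the cells had been given an LNA (locked nucleic acid) that blocks miR-9, and in 3 samples a scrambled LNA. All 6 samples share the 1 cell line, delivery by nucleofection and harvest 9 h later. Whether the numbered replicates came from different cultures is not stated, and a p-value here reflects the spread among these samples, which may be technical. A microRNA lowers its target mRNAs by pairing through its seed, and an inhibitor of this kind competes for that pairing. In bulk RNA a change per cell cannot be told apart from a change in the mix of cells. The comparison asks how the mRNAs of the nucleolar machinery stood after 9 h of the inhibitor.

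The labels do not name the arm of miR-9 that was blocked, so both mature arms are shown, as RefSeq lists them on GRCh38.p14, with the seed (bases 2 to 8) in capitals. The genes MIR9-1, MIR9-2 and MIR9-3 give the same mature arms, and the coordinates are those of MIR9-1 on the minus strand, chr1:156420392-156420414 for the 5p arm and chr1:156420354-156420375 for the 3p arm.
hsa-miR-9-5p: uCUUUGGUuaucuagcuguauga
hsa-miR-9-3p: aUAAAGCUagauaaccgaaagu

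Each promoter motif searched was in a larger share of the nucleolar genes than of all genes with a tested probe set. None was in most of the nucleolar genes. The letters themselves do not depend on the arrays. RefSeq promoters, from 250 bases before to 50 bases after a start site on GRCh38.p14, were listed for 32 of the 39 genes. The E-box CACGTG, which MYC and related factors bind, was present in 15 of these 32 genes (46.9%), against 12.7% of the 9972 genes with a tested probe set and a listed promoter and 8.77% of all 27305 genes in the promoter table. Of the 141 other ribosome biogenesis genes considered below, 115 had a listed promoter and an array value, and 28.7% of these carried the E-box. The ETS motif CCGGAAG, on either strand, was in 14 of the 32 genes (43.8%), against 40.9% of the other ribosome biogenesis genes and 21.8% of the genes with a tested probe set. Another motif searched, that of the factor NRF1, was in 2 of the 32 genes (6.25%), against 2.66% of the genes with a tested probe set. Each motif was searched on its own on both strands, sites where motifs overlap were kept for both, and a match describes the letters only. Promoters listed per gene averaged 1.09 for the nucleolar genes and 1.44 for the genes with a tested probe set.

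The E-boxes of the nucleolar genes lay close to the start of transcription. Of the 17 E-boxes in their promoters, 15 (88.2%) began within 100 bases of the start site, against 60.5% of the 1530 E-boxes in promoters of genes with a tested probe set. The sites below, from each role in the machinery except the abundant nucleolar proteins, are shown 5′ to 3′ on the gene's strand with the E-box in capitals.
MYBBP1A (chr17:4555340-4555369, minus strand): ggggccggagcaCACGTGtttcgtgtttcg
FBL (chr19:39846356-39846385, minus strand): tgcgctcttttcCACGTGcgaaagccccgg
GAR1 (chr4:109815781-109815810, plus strand): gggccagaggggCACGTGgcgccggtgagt
UTP4 (chr16:69132621-69132650, plus strand): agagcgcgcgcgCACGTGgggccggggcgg
WDR43 (chr2:28894658-28894687, plus strand): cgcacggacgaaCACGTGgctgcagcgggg
NOC3L (chr10:94362903-94362932, minus strand): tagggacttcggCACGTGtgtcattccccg
Of these, the E-box began at base 7 after the start in FBL, at base 20 in NOC3L, at base 4 in WDR43 and 16 bases before the start in UTP4.

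The genes of smallest p in the 5 role groups were looked at more closely. The ETS motif was present before the start site in WDR36, NOC3L and POLR1B and not in that window of NCL, and NOLC1 had no listed promoter. The stretches below are the 150 bases just before the start site, with the ETS motif or its reverse complement in capitals. POLR1B has an upstream start listed too, also with an ETS motif, and the downstream one is shown.
WDR36 (chr5:111092198-111092347, plus strand): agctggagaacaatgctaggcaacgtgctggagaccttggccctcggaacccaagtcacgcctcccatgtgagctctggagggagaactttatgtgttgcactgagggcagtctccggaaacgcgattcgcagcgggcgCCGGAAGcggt
NOC3L (chr10:94362940-94363089, minus strand): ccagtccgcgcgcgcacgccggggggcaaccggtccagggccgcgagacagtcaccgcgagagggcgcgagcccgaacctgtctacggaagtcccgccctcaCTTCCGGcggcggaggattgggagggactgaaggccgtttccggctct
POLR1B (chr2:112542315-112542464, plus strand): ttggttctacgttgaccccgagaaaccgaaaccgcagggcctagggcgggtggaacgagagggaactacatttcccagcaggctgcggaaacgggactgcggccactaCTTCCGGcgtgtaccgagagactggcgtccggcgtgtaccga

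Array facts that touch the results come before them. Values are log2 RMA expression, a per-probe-set summary of array brightness, and a level here is the mean over the 6 arrays. The array medians over all probe sets lay between 7.10 and 7.15. The 90th percentile was 9.53 to 9.57 on the miR-9 LNA arrays and 9.28, 9.45 and 9.47 on scrambled replicates 1, 2 and 3. Scrambled replicate 1 stood apart. The bacterial spike-in dap averaged 10.34 there and 8.15 to 8.80 on the other 5 arrays. Markers were read against the label of the cell line. All 10 markers of Hodgkin and Reed-Sternberg cells lay above the level filter of 7.11, among them TNFRSF8 (CD30) at 10.51, while none of 6 markers of T and NK cells did. Among the 5 named B cell identity genes, whose loss is typical of Hodgkin lymphoma, levels were 6.73 to 7.36 and 2 passed the filter. Of 4 monocyte markers (6.71 to 7.21) 1 passed, and of 5 fibroblast and endothelial markers (6.65 to 8.16) 4 passed, with COL1A1 at 8.16. Summed over its list, the level of the T and NK cell markers was 41.5 to 41.6 on the miR-9 LNA arrays and 41.5 to 42.3 on the scrambled arrays, and that of the Hodgkin markers 109.1 to 111.3 and 108.3 to 110.3.

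Most of the nucleolar genes lay higher with the miR-9 inhibitor in the deposited values, by a small amount, and none passed the threshold of 0.05 after adjustment over all probe sets. HEATR1, WDR36, NOC3L, UTP3 and NOLC1 had the 5 largest differences at their brightest probe sets, a fold of 1.25 to 1.31. Of the 18 small subunit processing genes, 15 lay higher (83.3%), against 87.2% of the 39 genes and 66.9% of all tested probe sets. In the brightest of 5 equal bins of level 95.3% of probe sets lay higher, and in the next 86.4%. NIP7, NOC2L, UTP20, NOC4L and UTP23 lay slightly lower. Bright probe sets as a whole also lay higher, and the median difference of the genes was smaller after quantile normalization, which gives the 6 arrays 1 distribution.

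All 39 genes passed the level filter, which kept 27307 probe sets with a mean at or above the median of all probe sets. In the deposited values the difference was above 0 for 34 genes and below 0 for 5, with a median of 0.18 on the log2 scale, against 66.9% of all tested probe sets above 0 and a median of 0.06. The genes' share above 0 was 87.2%, while it was 95.3% of all probe sets in the brightest of 5 equal bins of level and 86.4% in the next, which together hold all but 2 of the genes. In limma, 0 of the 39 genes passed an adjusted p under 0.05, where the background over all tested probe sets was 0.0%, and the lowest adjusted p among the genes was 0.296. At an unadjusted limma p under 0.05, 15 genes were higher (38.5%) and 0 lower, against a background of 13.8% of probe sets higher and 0.626% lower. Deviations of same-numbered arrays correlated at r = 0.231, 0.193 and 0.634, against up to 0.168 for other numbers. The pairing was thus read from these same values. A fit blocked on the replicate number put 18 of the genes higher and 0 lower at an unadjusted limma p under 0.05. UTP4, NOP2, NOP16 and RRS1 were gained and WDR75 was lost. In that blocked fit the background was 21.8% higher and 1.0% lower, that is 5944 probe sets against 3755 without the block and 274 against 171. No share by level was computed for the blocked fit. Without the block 31.2% of the brightest bin was higher at that threshold, against 13.8% of all tested probe sets. Every miR-9 LNA array lay above every scrambled array for 16 genes (41.0%) and below for 0, where the background was 18.1% and 3.97% of all tested probe sets.

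The brightest bin of tested probe sets had a median log2 difference of 0.19 and the next a median of 0.14, and 28 of the 39 genes lay in the brightest bin, 9 in the next and 2 in the middle one. Of those 28 genes, 14 had groups that did not overlap in the higher direction, against 34.6% of all probe sets in the bin, and 14 had an unadjusted limma p under 0.05 in that direction, against 31.2%. The median of the 28 genes was 0.22, and 26 of them (92.9%) lay above 0, against 95.3% of the bin. In the next bin the 9 genes had a median of 0.07, below the 0.14 of all probe sets there. Groups did not overlap in the higher direction for 2 of those 9 genes (22.2%), against 1637 of the 5461 probe sets in the bin, and 11.1% of the genes had an unadjusted limma p under 0.05 in that direction, against 24.9%. After quantile normalization the median of the 39 genes was 0.03 and 22 lay above 0, against a median of 0.004 and 51.5% over all tested probe sets. In the brightest bin 19 of the 28 genes then lay above 0 (67.9%, against 56.2%), with a median of 0.04 against 0.01. In the next bin 2 of the 9 did (22.2%, against 55.6%), with a median of -0.07 against 0.02. Over the 39 genes the groups then did not overlap for 7 in the higher and 1 in the lower direction, where the background was 5.98% and 5.72%. Spearman's correlation between level and difference was 0.297 over the 39 genes and 0.626 over all tested probe sets, as a description across genes of the same 6 arrays, which are not independent replicates.

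**Figure D1:**
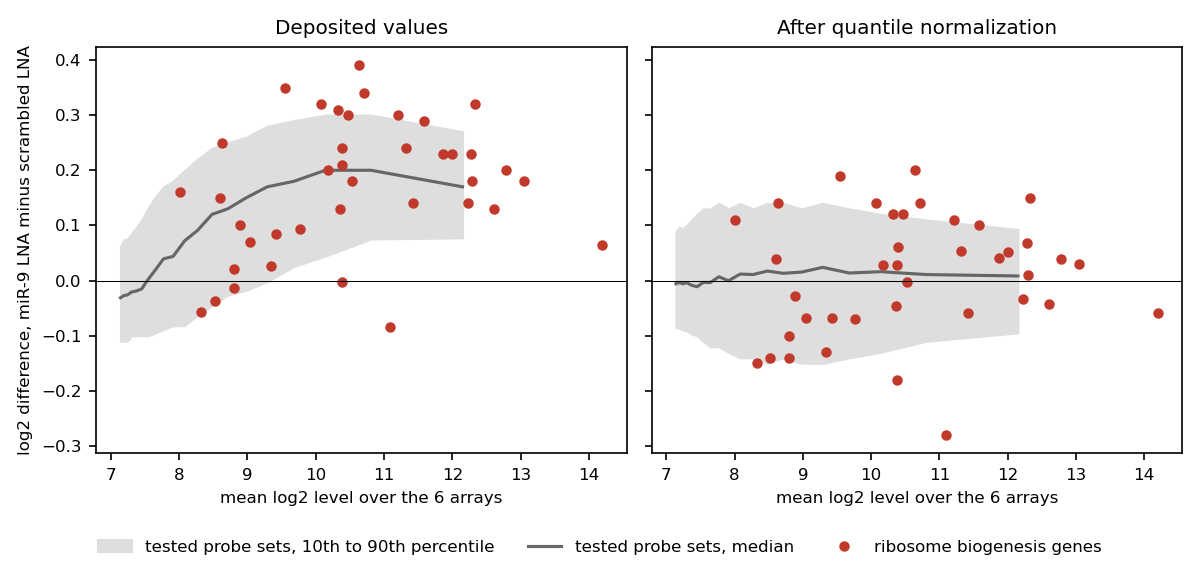
The log2 difference of each of the 39 nucleolar genes (red points, miR-9 LNA minus scrambled LNA) is plotted against its mean log2 level over the 6 arrays, in the deposited values on the left and after quantile normalization on the right, where the grey band and line give the 10th to 90th percentile and the median of all tested probe sets in 20 bins of level. In the deposited values the brightest probe sets lie above 0 and so do 34 of the genes, while after quantile normalization the median of the genes is 0.03 with 17 below 0.

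Scrambled replicate 1 was the lowest of the 6 arrays for 31 of the 39 genes, where it was lowest for 44.3% of all tested probe sets and 73.7% of those in the brightest bin. The genes' median deviation from their own means was -0.24 on that array and -0.02 on each of scrambled replicates 2 and 3, against 0.06 to 0.10 on the miR-9 LNA arrays. Without scrambled replicate 1 the median log2 difference of the 39 genes was 0.11 and 30 were higher (76.9%, background 63.2%). In that fit 84.7% of the brightest bin lay higher with a median of 0.12, and 77.8% of the next with a median of 0.1. The groups were apart for 17 genes that lay higher (43.6%) and 3 that lay lower (background 22.2% and 9.75%), the last being UTP20, UTP23 and NIP7. Groups were apart in the higher direction for 36.9% of the brightest bin and 34.7% of the next. Of the genes above 0 in the deposited values, the difference without that array was at least 1.5 times smaller for FBL (0.02), NOP10 (0.02), UTP6 (0.16), WDR43 (0.02), PES1 (0.03), NOP2 (0.09), NOP16 (0.09), RRS1 (0.11) and NCL (0.08). It lay below 0 for MYBBP1A (-0.03), GAR1 (-0.003), NOP14 (-0.03), RRP12 (-0.01) and NPM1 (-0.05). HEATR1, which had the largest difference, went from 0.39 to 0.26 without that array, close to the cutoff of 1.5 times. In the same fit limma gave 12 genes higher (30.8%) and 1 lower at an unadjusted p under 0.05 (background 10.0% and 3.13%). At that threshold 21.9% of the brightest bin and 18.8% of the next were higher. In this fit 0 genes passed an adjusted p under 0.05. The part of that array's depressed bright end and raised spike-in in the result was not tested beyond leaving it out.

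**Figure D2:**
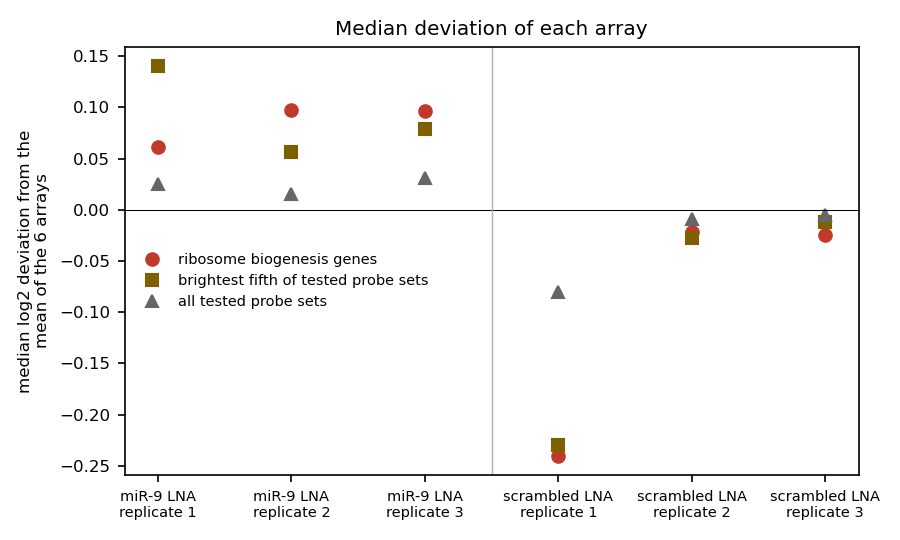
The median log2 deviation from the mean of the 6 arrays is plotted for each array over the 39 nucleolar genes (red circles), the brightest of 5 bins of tested probe sets (brown squares) and all tested probe sets (grey triangles). The genes and the brightest probe sets lie above 0 on all 3 miR-9 LNA arrays and near -0.24 and -0.23 on scrambled replicate 1, with scrambled replicates 2 and 3 between.

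The enzymes and regulators that copy ribosomal DNA were higher in 4 of 4 genes, with a median log2 difference of 0.13. POLR1B, a subunit of the catalytic core of RNA polymerase I, was at 10.42, 10.61 and 10.48 on the miR-9 LNA arrays and at 10.15, 10.39 and 10.25 on the scrambled LNA arrays. Every miR-9 LNA array lay above every scrambled array for this gene, by the margin between 10.42 and 10.39. The difference was 0.24 ± 0.08 (standard error, limma adjusted p = 0.303, n = 3 arrays per group) and 0.06 after quantile normalization. POLR1A, the largest subunit, differed by 0.10 ± 0.06 without overlap. TCOF1, the treacle protein that couples transcription to modification of the precursor, differed by 0.15 ± 0.08. MYBBP1A, a nucleolar protein that can restrain polymerase I, differed by 0.02 ± 0.07. After quantile normalization POLR1A and MYBBP1A differed by -0.03 and -0.10, so their sign turned.

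The 6 snoRNP proteins with values were all higher in the deposited values, with differences of 0.13 to 0.32. NOLC1, a chaperone of snoRNPs that shuttles between the nucleolus and other nuclear bodies, was at 12.55, 12.47 and 12.45 on the miR-9 LNA arrays and at 12.02, 12.35 and 12.16 on the scrambled LNA arrays. The groups did not overlap, and the difference was 0.32 ± 0.09 (limma adjusted p = 0.296). Its other probe sets gave 0.23 and 0.15, and the brightest gave 0.15 after quantile normalization and 0.24 without scrambled replicate 1. NOP58, a core protein of the box C/D particles that methylate ribosomal RNA, was at 12.95, 12.87 and 12.83 with the miR-9 LNA and at 12.61, 12.73 and 12.70 with the scrambled LNA. That difference was 0.20 ± 0.07 without overlap (limma adjusted p = 0.296). FBL, the methyltransferase of the same particles, differed by 0.18 ± 0.15, and by 0.02 without scrambled replicate 1. The proteins of the box H/ACA particles, which turn uridine into pseudouridine, had smaller differences with overlapping groups: 0.13 for NHP2, 0.13 for GAR1 and 0.14 for NOP10 in the deposited values. Their differences were -0.0455 to -0.0343 after quantile normalization, and without scrambled replicate 1 GAR1 differed by -0.003 and NOP10 by 0.02.

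The small subunit processome, the assembly that forms on the precursor and shapes the small subunit, made up 18 of the 39 genes. It held 9 of the 15 genes that were higher at an unadjusted limma p under 0.05. The background at that threshold was 13.8% of all tested probe sets, 31.2% of the brightest bin and 24.9% of the next. Of the 18 processome genes, 15 were higher (83.3%) and 3 lower, with a median of 0.22. In the brightest bin 95.3% of probe sets were higher, and in the next 86.4%. The groups did not overlap in the higher direction for 10 of the 18 genes (55.6%), against 18.1% of all tested probe sets and 34.6% of the brightest bin. WDR36, a propeller protein of the UtpB building block, was at 9.72, 9.77 and 9.69 with the miR-9 LNA and at 9.31, 9.44 and 9.39 with the scrambled LNA, a gap larger than the spread within either group. The difference was 0.35 ± 0.06 (limma adjusted p = 0.296), and it was 0.19 after quantile normalization (limma unadjusted p = 0.0176, not past adjustment). Its second probe set differed by 0.11.

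Other genes of the UtpB block were also higher. WDR3 differed by 0.30 ± 0.06, UTP6 by 0.29 ± 0.12 and UTP18 by 0.24 ± 0.08, all without overlap and all with an unadjusted limma p under 0.05, though UTP6 differed by 0.16 without scrambled replicate 1. The proteins of the block in the wider list differed less, PWP2 and TBL3 by 0.13 ± 0.06 and -0.03 ± 0.07. The UtpA block, which binds the start of the precursor and is linked to its transcription, had differences of 0.07 to 0.39. HEATR1, its large scaffold protein, was at 10.84, 10.79 and 10.88 with the miR-9 LNA and at 10.18, 10.52 and 10.63 with the scrambled LNA. That gave 0.39 ± 0.11 without overlap (limma adjusted p = 0.296), 0.26 without scrambled replicate 1 and 0.20 after quantile normalization (limma unadjusted p = 0.0273). The other tested HEATR1 probe sets differed by 0.29, 0.15 and -0.15, and the mean over all its probe sets by 0.13. UTP15 differed by 0.25 ± 0.07, UTP4 by 0.23 ± 0.13, WDR75 by 0.18 ± 0.08 and WDR43 by 0.07 ± 0.07, and NOL11, the remaining protein of that block, by 0.29 ± 0.09.

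UTP4 was at 12.41, 12.53 and 12.25 with the miR-9 LNA and at 12.02, 12.44 and 12.02 with the scrambled LNA, so scrambled replicate 2 lay inside the miR-9 LNA range. UTP3, a processome protein known in yeast as Sas10, was at 10.23, 10.22 and 10.23 with the miR-9 LNA and at 9.72, 9.99 and 10.02 with the scrambled LNA, which gave a difference of 0.32 ± 0.09 without overlap. UTP14A, whose yeast counterpart activates a helicase of the processome, differed by 0.31 ± 0.07, also without overlap. BYSL, bystin of the early small subunit, differed by 0.09 ± 0.06, NOP14 by 0.21 ± 0.24 and RRP9 by 0.16 ± 0.11. RRP12, an export factor, differed by 0.03 ± 0.08. NOP14 ranged from 9.79 to 10.74 within the scrambled group alone, and without scrambled replicate 1 its difference was -0.03.

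The 3 processome genes that lay lower did so by less than the spread between arrays. UTP20 was at 8.44, 8.47 and 8.59 with the miR-9 LNA and at 8.30, 8.66 and 8.66 with the scrambled LNA, which gave a difference of -0.04 ± 0.11 (limma adjusted p = 0.883). NOC4L, whose yeast counterpart binds Nop14, was at 8.74, 8.84 and 8.79 with the miR-9 LNA and at 8.86, 8.78 and 8.77 with the scrambled LNA, which gave a difference of -0.01 ± 0.06 (limma adjusted p = 0.931). The groups overlapped for both. UTP23, an early processome protein, was at 10.53, 10.21 and 10.38 with the miR-9 LNA and at 9.93, 10.58 and 10.62 with the scrambled LNA at its brightest probe set, a difference of -0.002 ± 0.18 (limma adjusted p = 0.995). Its second-brightest probe set read 10.36, 10.30 and 10.33 with the miR-9 LNA and 9.86, 10.04 and 10.05 with the scrambled LNA, which gave a difference of 0.34 without overlap. The other UTP23 probe sets differed by 0.25 and 0.39. Those probe sets of 1 gene therefore gave differences from near 0 to 0.39, and the choice of the brightest decides which is counted.

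The large subunit factors with values numbered 9, of which 7 were higher and 2 lower, with a median of 0.20. NOC3L, a processing and transport factor of the large subunit, was at 10.87, 10.88 and 10.90 with the miR-9 LNA and at 10.46, 10.64 and 10.53 with the scrambled LNA, with no overlap and a narrow miR-9 LNA range. The difference was 0.34 ± 0.07 (limma adjusted p = 0.296), and 0.14 after quantile normalization. WDR12 and PES1, partners in a complex with BOP1, differed by 0.30 ± 0.11 and 0.09 ± 0.08. NOP16 was at 12.03, 12.12 and 12.21 with the miR-9 LNA and at 11.62, 11.97 and 12.08 with the scrambled LNA, which gave a difference of 0.23 ± 0.12 with overlap (limma adjusted p = 0.409). RRS1, which brings in the 5S particle, differed by 0.23 ± 0.11, NOP2, a ribosomal RNA methyltransferase, by 0.20 ± 0.11 and RRP1B by 0.14 ± 0.06, without overlap for RRP1B alone.

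NIP7, a large subunit factor that binds the precursor RNA, was at 11.10, 10.92 and 11.12 with the miR-9 LNA and at 10.75, 11.32 and 11.32 with the scrambled LNA, which gave a difference of -0.08 ± 0.16 (limma adjusted p = 0.811). The level on scrambled replicate 1 lay below all others, and without that array the groups did not overlap and NIP7 differed by -0.28 (limma unadjusted p = 0.01). After quantile normalization the difference was also -0.28 (limma unadjusted p = 0.031). The second-brightest NIP7 probe set differed by 0.17 in the deposited values and by -0.02 after quantile normalization. NOC2L, a partner of NOC3L, was at 8.20, 8.38 and 8.29 with the miR-9 LNA and at 8.35, 8.32 and 8.38 with the scrambled LNA, which gave a difference of -0.06 ± 0.07 (limma adjusted p = 0.692). The groups overlapped for both.

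The abundant nucleolar proteins differed by less than the SD of the scrambled arrays, 0.21 for NCL and 0.19 for NPM1. NCL, nucleolin, was at 13.09, 13.17 and 13.16 with the miR-9 LNA and at 12.75, 12.95 and 13.16 with the scrambled LNA, which gave a difference of 0.18 ± 0.10 (limma adjusted p = 0.435), and 0.08 without scrambled replicate 1. NPM1, nucleophosmin, was at 14.30, 14.24 and 14.16 with the miR-9 LNA and at 13.95, 14.29 and 14.28 with the scrambled LNA, which gave a difference of 0.06 ± 0.10 (limma adjusted p = 0.776). Scrambled replicate 1 was the lowest array for each, and the other arrays overlapped. NPM1 has many processed copies in the genome, and its other probe sets differed by 0.21 and 0.18.

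**Figure D3:**
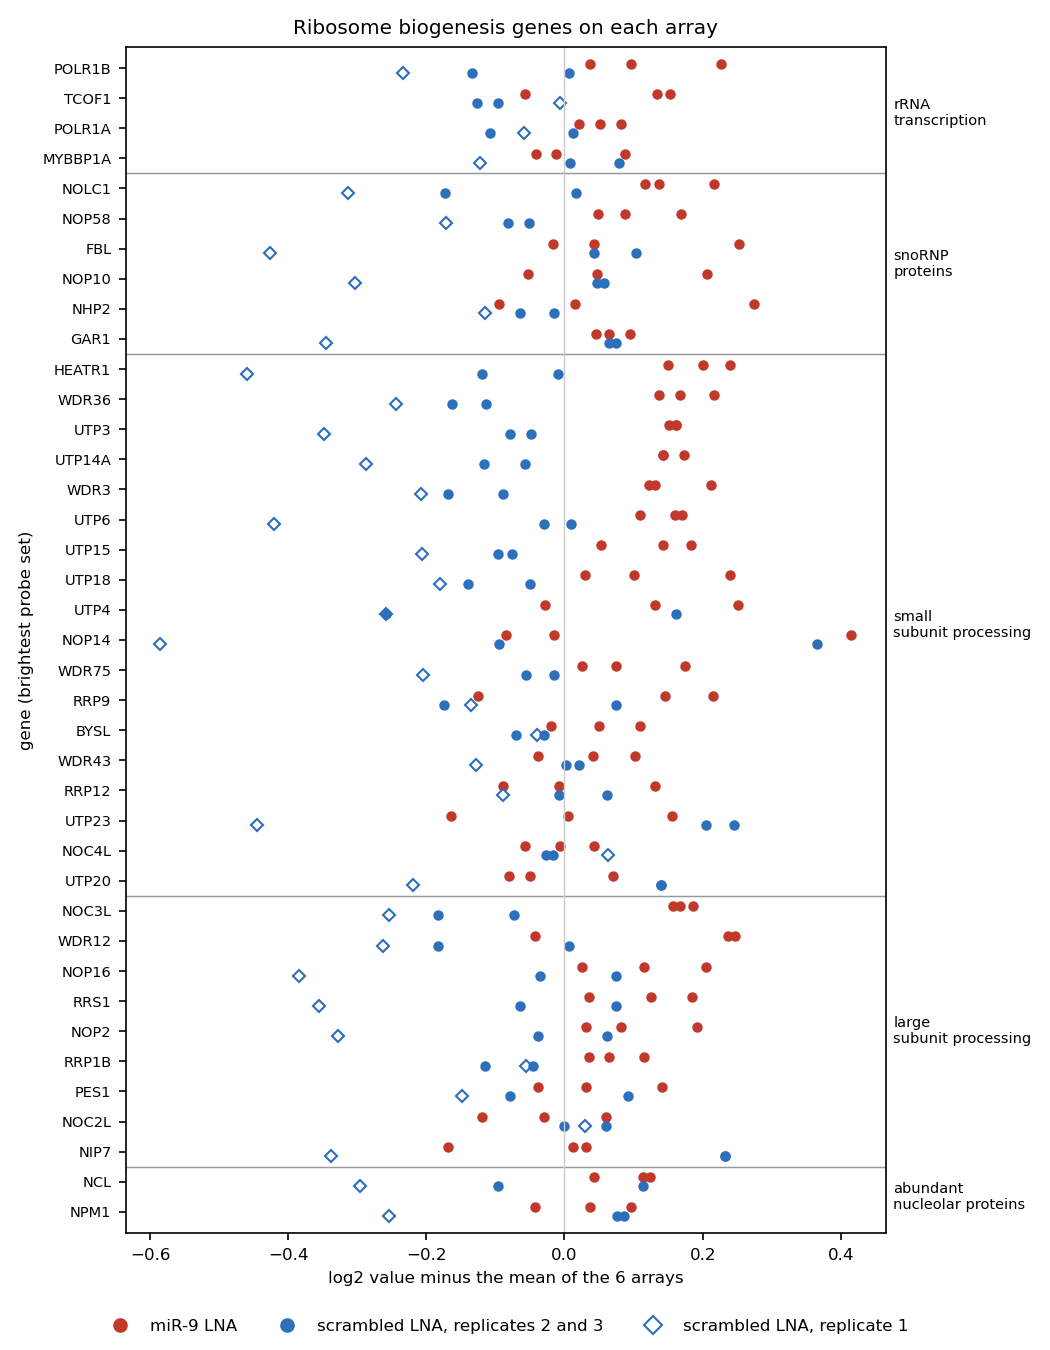
Each row is 1 nucleolar gene at its brightest probe set, grouped by role and sorted by difference, with each array drawn as its log2 value minus the mean of the 6 arrays (red for miR-9 LNA, filled blue for scrambled replicates 2 and 3, open blue diamonds for scrambled replicate 1). For 16 genes every red point lies right of every blue one, and scrambled replicate 1 is the lowest array for 31 of the 39.

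**Figure D4:**
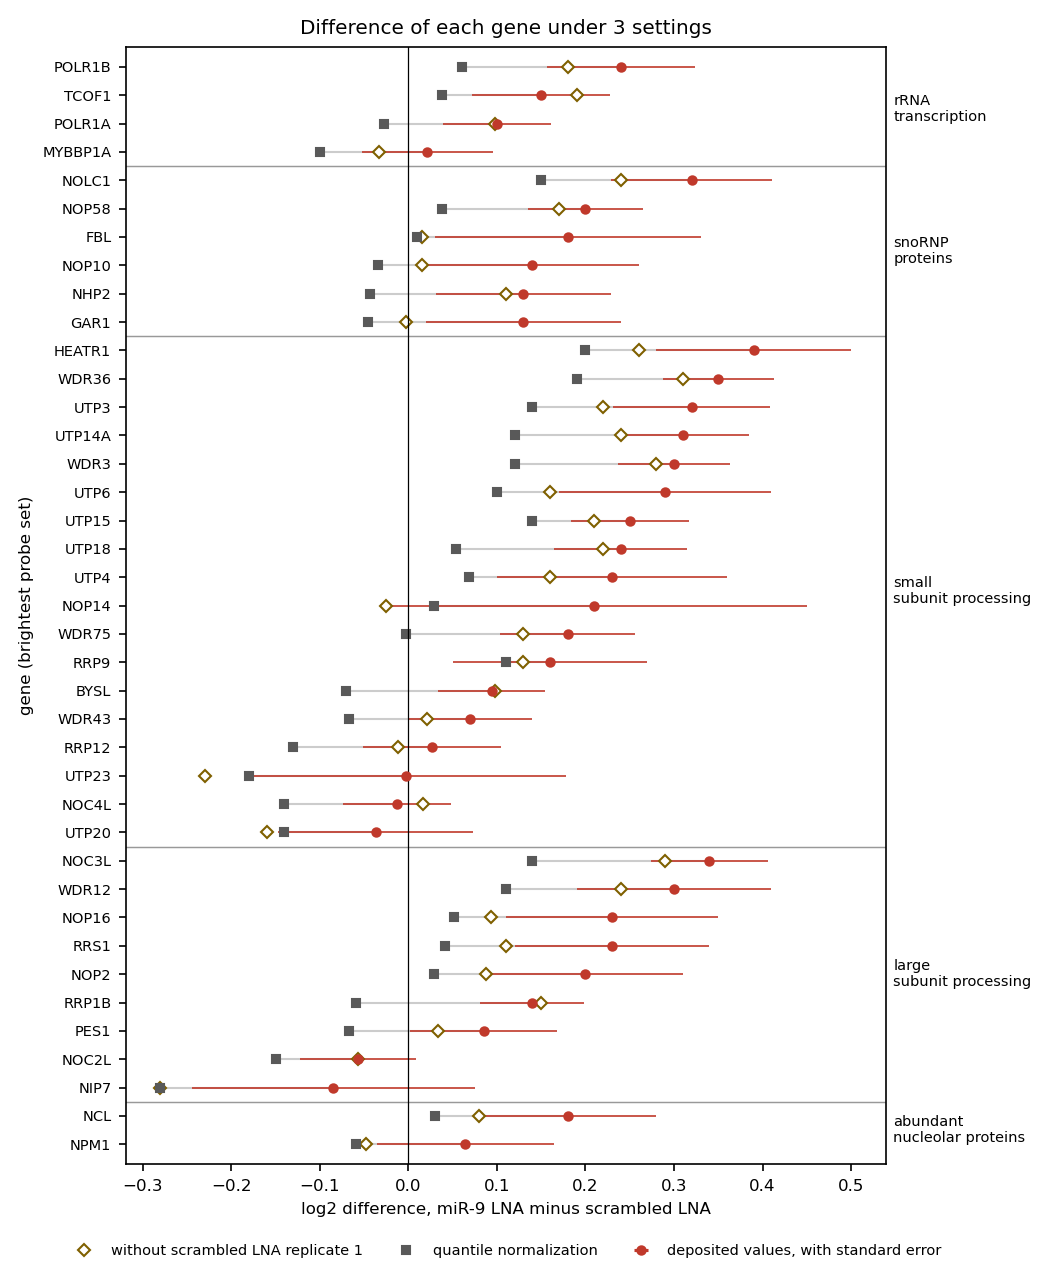
The log2 difference (miR-9 LNA minus scrambled LNA) of each nucleolar gene is plotted in the deposited values with its standard error (red circles), without scrambled replicate 1 (open brown diamonds) and after quantile normalization (grey squares). Of the 34 genes above 0 in the deposited values, 12 lie below 0 after quantile normalization, and HEATR1 and WDR36 stay near 0.2.

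Between same-numbered arrays, 25 of the 39 genes had the higher value on the miR-9 LNA array in all 3 pairs, 9 in 2 pairs and 5 in 1 pair, while 40.2% of all tested probe sets were higher in all 3 pairs. The pair share was not computed by level. By group means 95.3% of the brightest bin lay higher, against 66.9% of all tested probe sets, so 40.2% is no background for bright genes. After quantile normalization 4 genes had an unadjusted limma p under 0.05 in the higher direction, HEATR1, WDR36, UTP3 and UTP15. All 4 were of the small subunit processome. NIP7 had such a p in the lower direction, where the background was 2.38% higher and 2.17% lower. Of the 40 other small subunit assembly genes with values, 1 did so in the higher direction (2.5%), with a median of 0.005. Under that normalization the other tested HEATR1 probe sets differed by 0.11, 0.03 and -0.12. The second WDR36 probe set differed by 0.06 and the second UTP15 probe set by 0.17. UTP3 and UTP15 each differed by 0.14 there. The sign of the difference turned from higher to lower under that normalization for 12 genes, POLR1A, MYBBP1A, NHP2, GAR1, NOP10, WDR43, WDR75, RRP12, BYSL, PES1, RRP1B and NPM1. Of 18 genes with more than 1 tested probe set, 10 had tested probe sets of both signs, namely HEATR1, NCL, NIP7, NOP16, POLR1A, POLR1B, RRP12, TCOF1, UTP23 and WDR12. Genes with an E-box had a median difference of 0.16 (15 genes) and those without 0.23 (17 genes), and genes with the ETS motif 0.23 (14 genes) against 0.16 without it (18 genes), given without a test.

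The wider pathway was read from a list of 141 other ribosome biogenesis genes. Of these, 133 had values, all above the level filter, and 128 were higher (96.2%), with a median of 0.18. Over all tested probe sets 66.9% were higher with a median of 0.06, and in the brightest bin 95.3% with a median of 0.19. In the next bin these were 86.4% and 0.14. The 5 that lay lower were CAVIN1, TBL3, ESF1, NOP53 and WRAP53, picked out here after their values were seen. No gene passed an adjusted p under 0.05, and 49 were higher and 0 lower at an unadjusted limma p under 0.05 (36.8%, against the background of 13.8% and 31.2% of the brightest bin). The groups did not overlap in the higher direction for 56 (42.1%, against 18.1%, and 34.6% of the brightest bin). The fit blocked on replicate number put 58 of them (43.6%) higher at an unadjusted limma p under 0.05. The background in that fit was 21.8% over all levels, and it was not computed for the brightest bin. After quantile normalization 77 of the 133 were higher (57.9%, against 51.5% of all tested probe sets), with a median of 0.01. In the brightest bin 56.2% were then higher with a median of 0.01, and in the next 55.6% with a median of 0.02. Of the 133 genes, 3.01% had an unadjusted limma p under 0.05 in the higher direction. This was 2.38% over all tested probe sets, 1.54% in the brightest bin and 2.75% in the next.

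By branch, the counts below are read against the share of all probe sets higher at each level. From the brightest of the 5 bins down this was 95.3%, 86.4%, 70.2%, 47.6% and 34.9%. Levels of these genes ran from 7.33 (TAF1A) to 12.3 (DDX21), so not all lay in the brightest bin. After quantile normalization the number higher was 22 of 40 small subunit factors, 19 of 39 large subunit factors and 9 of 13 helicases. It was 10 of 14 genes of the exosome branch, 10 of 14 RNA polymerase I genes and 7 of 13 snoRNP assembly factors. Under that normalization 56.2% of the brightest bin and 55.6% of the next were higher. The counts that follow are from the deposited values. Among small subunit assembly factors (38 of 40 higher) the smallest p values belonged to NOL10, NAT10, an RNA acetyltransferase, and BMS1, a GTPase, with differences of 0.30, 0.30 and 0.31. Among large subunit factors (38 of 39 higher) they belonged to GNL2, a GTPase, MAK16 and NOL8, with 0.29, 0.31 and 0.25. The nucleolar helicases (13 of 13 higher) were led by DDX55, DDX24 and DDX10, with 0.33, 0.30 and 0.25. The branch of the exosome and its cofactors, listed with the separate nuclease XRN2, holds genes that trim precursor ends (14 of 14 higher). It was led by XRN2, the helicase MTREX and the nuclease DIS3, with 0.27, 0.39 and 0.23. In the RNA polymerase I machinery (13 of 14 higher) POLR1F, TTF1 and POLR1E differed by 0.19, 0.22 and 0.19, and among the snoRNP assembly factors (12 of 13 higher) COIL, NUFIP1 and RUVBL1 differed by 0.31, 0.29 and 0.20. None of these 18 genes passed the adjustment.

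The array also carries control probe sets for mature ribosomal RNA, the product of this machinery. Mature ribosomal RNA is long-lived, and these controls read whatever part of it was copied and labelled. The 18S control at the 3′ end was at 9.61, 9.42 and 9.09 with the miR-9 LNA and at 9.67, 10.46 and 9.71 with the scrambled LNA. The groups did not overlap there, with a mean of 9.38 ± 0.26 against 9.95 ± 0.45 (SD, n = 3 each, difference -0.57, two-sided exact permutation p = 0.1, the smallest that 3 against 3 arrays allow). Without scrambled replicate 2 that difference was -0.31. The 18S control at the 5′ end lay the other way, at 11.38, 12.82 and 10.50 with the miR-9 LNA and at 10.31, 9.61 and 10.79 with the scrambled LNA, with overlap (difference 1.33, exact permutation p = 0.2). Without miR-9 LNA replicate 2 the 5′ difference was 0.71. The middle 18S control differed by 0.19 and the 28S controls by -0.14 to 0.03, with exact permutation p values of 0.2 to 1.0.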

How the data were processed

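Total RNA of 6 L428 samples was measured on Affymetrix HG-U133 Plus 2.0 arrays. The authors deposited log2 expression values. The tools affy and RMA are listed per the submitters' processing notes, and their versions and options are not given in the sources used here. Lowest values per array were 5.97 to 6.08. From 54675 probe sets, 62 controls were left out, and the 27307 with a mean at or above the median of the rest (7.11) were tested with limma 3.58.1 in R 4.3.3 (lmFit, eBayes, two-sided, Benjamini-Hochberg, threshold 0.05), after the series text, which names limma. The number of arrays, 3 per group, limits the precision.

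In the platform annotation 41091 probe sets carried 1 symbol, 1801 several and 11721 none, and only the first kind were named. Every member was read at its brightest probe set. The genes and lists were chosen with earlier results of these data known. All members may be named. Array values are printed for the gene of smallest p and of highest level in each role, for every gene that lay lower, and for HEATR1, UTP3 and a second UTP23 probe set, chosen after their values were seen, and the wider list names the 3 of smallest p per branch.

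Same-numbered arrays had deviations from group means that correlated at r = 0.231, 0.193 and 0.634 across probe sets. For other numbers r was -0.429 to 0.168. The labels being silent, the numbers were taken as pairs from these same values, in the blocked fit and the pair counts only. The main fit, with its standard errors and p-values, did not use the pairing. The alternatives changed normalization, filter, variance model, array weights, replicate block, the probe set rule, or left out 1 array at a time. The fits were first tested on simulated data. Promoter and microRNA sequences came from RefSeq tables on GRCh38.p14. TCOF1, NOP58, NOLC1, UTP23, RRP12, RRP1B and RRS1 had no listed promoter. Figures used matplotlib 3.10.9 in Python 3.11.15.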

Additional observations from a re-analysis of the deposited data

How the results depend on the processing

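In all 13 refits of the whole table, limma put 0 probe sets past an adjusted p under 0.05, and no nucleolar gene passed in any alternative, with a lowest adjusted p of 0.121 (array weights). The cause of each change below was not tested. Probe sets at an unadjusted p under 0.05 numbered 3755 higher and 171 lower in the deposited values. They numbered 650 and 593 after quantile normalization, 2038 and 608 with arrays centred on their medians, and 5944 and 274 with the replicate block. The lower count was 1032 with no filter on level, 19 with the filter at the upper quartile, 355 with a trended and robust variance and 1183 with array weights. Leaving out single arrays, the higher count ranged from 2303 (without miR-9 LNA replicate 1) to 4163, with 2492 without miR-9 LNA replicate 2, and the lower count from 42 (without miR-9 LNA replicate 2) to 856 (without scrambled LNA replicate 1), with 105 without miR-9 LNA replicate 1. With the replicate block, 18 nucleolar genes (46.2%) were higher at an unadjusted limma p under 0.05, against 15 (38.5%) without it. For the other ribosome biogenesis genes this was 58 (43.6%), against 49 (36.8%). The background over all tested probe sets was 21.8% with the block and 13.8% without it, and no call at an adjusted p changed. A background by level was not computed for the blocked fit.

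For the nucleolar genes the median of 0.18, the 34 higher and the 15 higher at an unadjusted p under 0.05 became 0.0289, 22 and 4 after quantile normalization, and 0.0546, 15 and 4 over the 23 genes with a second-brightest probe set. Leaving out single arrays they ranged from 0.11 to 0.22, from 30 to 37 and from 11 to 16. For the other ribosome biogenesis genes, the median of 0.18, the 128 higher and the 49 at an unadjusted p under 0.05 became 0.0109, 77 and 4 after quantile normalization. The last count was 30 with centred arrays, 32 with the mean of all probe sets per gene, 15 over the 90 genes with a second-brightest probe set (66 of them higher), and 32 to 50 leaving out single arrays, the lowest without miR-9 LNA replicate 1.

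The sign of the log2 difference turned after quantile normalization for POLR1A (-0.0272), MYBBP1A (-0.10), NHP2 (-0.043), GAR1 (-0.0455), NOP10 (-0.0343), WDR43 (-0.0675), WDR75 (-0.00241), RRP12 (-0.13), BYSL (-0.0701), PES1 (-0.0675), RRP1B (-0.0587) and NPM1 (-0.059). With centred arrays it turned for MYBBP1A (-0.0296) and RRP12 (-0.0239). With array weights it turned for MYBBP1A (-0.0534), NOP10 (-0.00711), NOC4L (0.0275), RRP12 (-0.0206) and NPM1 (-0.0253). With the mean of all probe sets it turned for UTP23 (0.25), RRP12 (-0.0487) and NIP7 (0.0413). At the second-brightest probe set it turned for POLR1A (-0.025), UTP6 (-0.0122), UTP23 (0.34), WDR3 (-0.0153), RRP12 (-0.0593), PES1 (-0.0448), WDR12 (-0.0884), NIP7 (0.17) and NCL (-0.0625). Leaving out single arrays, differences ranged from -0.033 to 0.0678 for MYBBP1A, -0.00302 to 0.21 for GAR1, -0.16 to 0.0229 for UTP20, -0.23 to 0.12 for UTP23, -0.0255 to 0.45 for NOP14, -0.0371 to 0.0166 for NOC4L, -0.0334 to 0.0767 for RRP12, -0.28 to 0.011 for NIP7 and -0.0474 to 0.12 for NPM1. The 28S control at the 5′ end differed by -0.14 after quantile normalization, against 0.03 in the deposited values.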
